A study of Rattus norvegicus with 6 samples.

Results

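The genes described here form the G1 checkpoint, where the p53 and Rb pathways decide whether a cell starts to copy its DNA. They are 9 genes chosen by their function, with no threshold on a measured value, namely Ccnd1, Cdk4, Cdk6, Cdkn1a, Cdkn1b, Cdkn2a, Cdkn2b, Mdm2 and Rb1, and each was found as 1 row among the 30957 Ensembl rat genes of the deposited table. RNA-seq was performed on 6 sciatic nerves of Sprague Dawley rats, 3 labelled injured (crushed) and 3 labelled normal (intact, from the uninjured opposite side). The methods describe adult male rats, a forceps crush of 30 s and collection of 0.5 cm proximal stumps at 4 days postinjury (dpi), whereas the sample labels give no age, sex or time point. The labels do not say whether a crushed and an intact nerve with the same number came from the same rat. All nerves share the same tissue label and extraction, and no transgene or drug is named for either group.

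Cells leave G1 when D-type cyclins, of which Ccnd1 is the best known, bind the kinases Cdk4 and Cdk6 and phosphorylate the retinoblastoma protein Rb1, which then releases the E2F transcription factors that switch on genes of DNA replication. The INK4 inhibitors encoded by Cdkn2a and Cdkn2b block Cdk4 and Cdk6, and the CIP/KIP inhibitors encoded by Cdkn1a and Cdkn1b act on cyclin-kinase complexes more widely. Cdkn1a is a classical target of p53, and so is Mdm2, which encodes the ubiquitin ligase that marks p53 for degradation. In injured peripheral nerve, Schwann cells are known to return to the cell cycle during Wallerian degeneration, and cyclin D1 is known to be induced in them.

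Values per nerve are given in the order of the replicate numbers, 1 to 3. Counts on genes summed to between 24844371 and 27139360 per nerve, and the smallest level told from 0, taken as 3 counts, was between 0.11 and 0.121 normalized CPM (counts scaled to the effective library size). The defining markers of nerve were largely missing. Of the 9 Schwann cell markers in the table, 4 had at most 3 counts in every nerve, among them Sox10 with at most 1 and S100b with at most 3, and their summed level was between 9.47 and 11.8 normalized CPM in intact and between 6.37 and 8.74 in crushed nerves. Of the 8 myelin markers 6 had at most 3 counts in every nerve, and the list sum, carried by Pmp22 and Prx, was between 57.6 and 61.7 normalized CPM in intact and between 57.1 and 57.6 in crushed nerves. Of the 10 macrophage markers 7 had at most 3 counts in every nerve, Ptprc, Adgre1, C1qa, C1qb and Cd163 had 0 in all, and the list sum was between 1.93 and 3.11 normalized CPM in intact and between 2.42 and 3.15 in crushed nerves. The endothelial list summed to between 4.62 and 5.49 normalized CPM in intact and between 3.77 and 5.08 in crushed nerves, and the perineurial and pericyte list to between 326 and 391 in intact and between 339 and 352 in crushed nerves. The perineurial and pericyte sum was carried by Slc2a1, with between 7743 and 9535 counts. Of the other genes of that list, Pdgfrb had between 176 and 330 and Cldn1 between 21 and 43 counts, Acta2 at most 3 and Rgs5 0. The fibroblast list summed to between 187 and 201 normalized CPM in intact and between 164 and 182 in crushed nerves, without overlap. Of its 8 genes Dcn, Lum and Col1a2 were at 0, whereas Thy1 had between 2431 and 3372, Pdgfra between 1114 and 1525 and Col1a1 between 293 and 537 counts. Which cells the RNA came from was not tested, so "intact nerve" and "crushed nerve" below stand for the labelled libraries. In such bulk samples, fewer cells of a type and less RNA per cell cannot be told apart. Nerves of a group were compared by the chi-square of their counts over genes, divided by the degrees of freedom. Among intact nerves, nerve 1 differed most, at 11.4 and 11.8 against nerves 2 and 3, and 4.58 between those. Among crushed nerves, nerve 3 differed most, at 7.3 and 5.86 against nerves 1 and 2, and 3.27 between those.

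Per unit of gene length, 7 of the 9 genes were expressed well above the floor and 2 were not detected at all. On the FPKM scale (counts scaled to gene length and depth, as the authors computed them), Cdk4 stood highest with 316.7 ± 18.3 over all nerves, followed by Ccnd1 with 263.9 ± 11.5, Mdm2 with 113.0 ± 2.34, Cdk6 with 89.9 ± 3.35, Cdkn1a with 83.6 ± 1.67, Cdkn1b with 48.3 ± 3.46 and Rb1 with 17.5 ± 1.01 (SD, n = 6 nerves). The ranges of neighbouring genes in this order did not overlap over the 6 nerves. The closest were Cdk6, between 86.1 and 96.2 FPKM, and Cdkn1a, between 82.1 and 85.8 FPKM. Cdk4 and Ccnd1 were within the highest 1.5% and 1.96% of the 12393 genes that passed the expression filter, and 5 of the 7 genes were within the highest 10% by mean FPKM. The order rests on the gene lengths implied by the table, which were the same in every nerve and ran from 912 bases for Cdk4 to 6866 for Ccnd1. Cdkn2a and Cdkn2b were listed at 0.

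**Figure D1:**
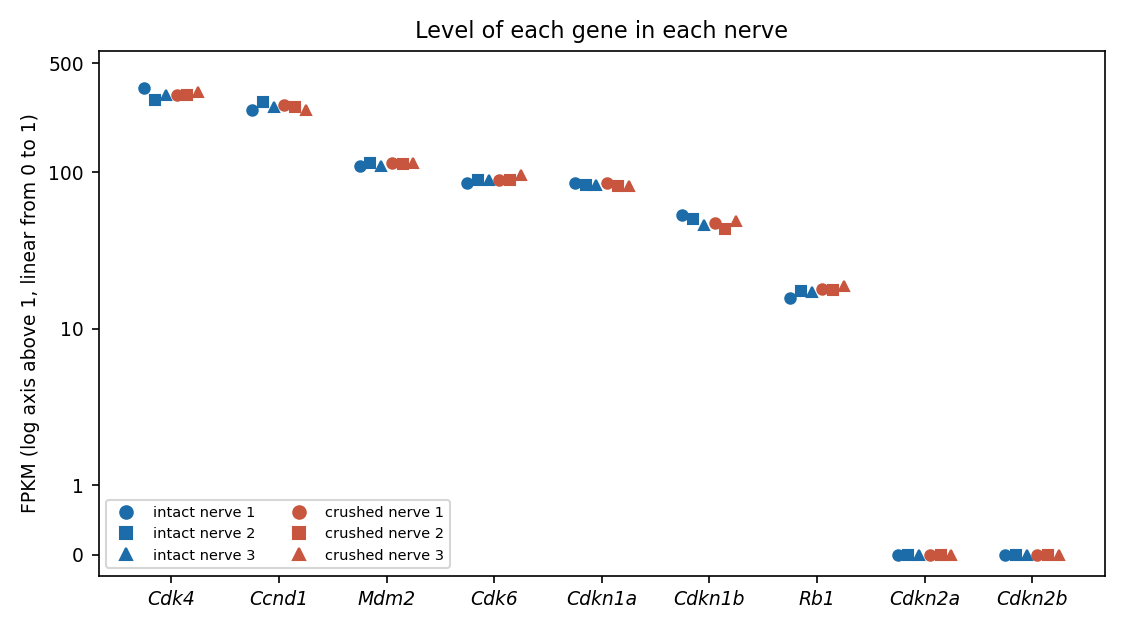
Level of the 9 genes in FPKM (vertical axis, logarithmic above 1 and linear from 0 to 1) in each of 3 intact (blue) and 3 crushed (red) nerves, with the marker shape giving the nerve number. The 6 nerves lie close together for every gene, Cdk4 and Ccnd1 are highest, and Cdkn2a and Cdkn2b are at 0 in all nerves.

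Whether a crush changes the G1 checkpoint genes was asked by comparing the 3 crushed with the 3 intact nerves. None of the 7 genes that could be tested passed the test for a change. With the edgeR quasi-likelihood test and Benjamini-Hochberg adjustment over all genes tested, at a threshold of 0.05, 0 of the 7 were higher, against 1.47% of all genes tested, and 0 were lower, against 1.65%. None met the limits given in the methods, an absolute log2 fold change above 1 with an unadjusted p under 0.001, which 0.282% of all genes met. An unadjusted p under 0.05 was reached by 0 of the 7, against 16.2% of all genes, and DESeq2 and limma also called 0. The normalized CPM of crushed and intact nerves overlapped for each of the 7, whereas for 23.0% of all genes tested the groups did not overlap. Each of these shares comes to fewer than 2 of 7 genes, so nothing is read from the counts of 0 about the genes as a group. The median log2 fold change of the 7 was -0.01, with 3 above and 4 below 0, and that of all genes tested was -0.0017. Over the whole table, 182 genes were called higher and 205 lower, a split that became 156 and 86 with limma on log2(FPKM + 0.1).

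**Figure D2:**
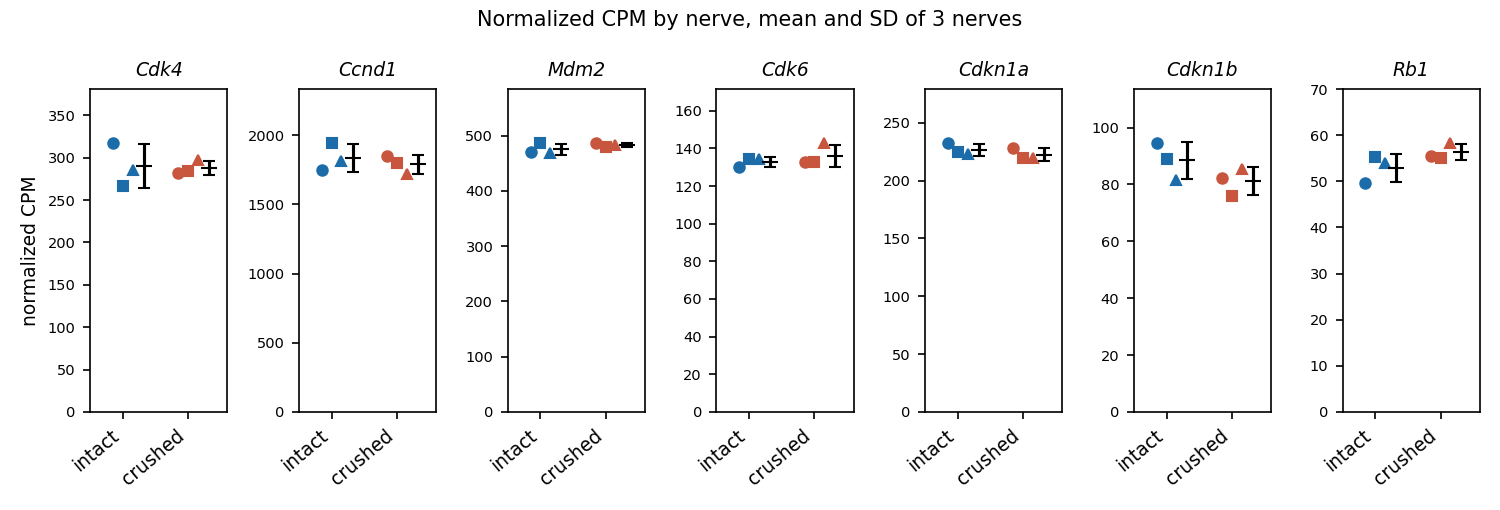
Normalized CPM (vertical axes, each starting at 0 and scaled to its gene) of the 7 detected genes in 3 intact (blue) and 3 crushed (red) nerves, with the mean and SD of each group in black. The groups overlap for each gene, and relative to their level the means differ most for Cdkn1b, 88.4 in intact and 81.1 in crushed nerves.

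Cyclin D1 and its kinases were abundant in every library. Ccnd1, on chromosome 1 from 218090750 to 218100325 (Rnor_6.0, the build named in the submitters' processing notes, which also holds for the gene positions below), reached 44239, 51325 and 44982 counts across the intact replicates against 50538, 48832 and 42990 across the crushed ones. Crushed nerve 3 and intact nerve 1 had the lowest counts, and the groups overlapped. Per length Ccnd1 was at 265.8 ± 14.9 FPKM in intact and 261.9 ± 9.97 FPKM in crushed nerves (SD, n = 3 nerves each), and the counts gave a log2 ratio of crushed to intact of -0.04 (SE 0.0461, edgeR quasi-likelihood test, adjusted p = 0.734). The 95% interval of the difference ran from -0.14 to 0.06, or from -9.26% to 4.50% as a change of level, and the direction turned without intact nerve 2 (0.0080).

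Cdk4, the main partner of cyclin D1, lies on chromosome 7 from 70349863 to 70352418 and reached 8037, 7035 and 7078 counts across the intact replicates against 7701, 7710 and 7463 across the crushed ones. In raw counts intact nerve 1 was the highest and the other intact nerves were the lowest, so that the crushed nerves lay between them. After normalization intact nerve 3, at 285.7 CPM, lay within the crushed range of 282.0 to 297.8 CPM. The normalized CPM was 290.0 ± 25.8 in intact and 287.9 ± 8.64 in crushed nerves (SD, n = 3 nerves each), with a log2 fold change of -0.01 (95% interval -0.14 to 0.12, edgeR quasi-likelihood test, adjusted p = 0.953). The direction of this small value changed with library size as the only scaling (0.0069) and without intact nerve 1 (0.07). The row overlaps Tspan31, which had at most 1723 counts, and neither the counting rule for shared reads nor the use of strand is stated.

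Cdk6, the paralog of Cdk4, lies on chromosome 4 from 27785647 to 27966398 and reached 3290, 3540 and 3329 counts across the intact replicates against 3624, 3603 and 3584 across the crushed ones. All crushed counts were above all intact counts, but the normalized values, 132.9 ± 2.45 CPM in intact and 136.1 ± 5.97 CPM in crushed nerves (SD, n = 3 nerves each), overlapped. The log2 fold change was 0.04 (95% interval -0.06 to 0.13, adjusted p = 0.751), and its direction turned without crushed nerve 3 (-0.0015). Cdk4 made up between 76.5% and 80.0% of the summed FPKM of Cdk4 and Cdk6, and its share overlapped between groups (exact permutation test, two-sided, p = 0.8).

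Of the other D-type cyclins, Ccnd2 had between 0 and 2 counts per nerve, at or under the floor, and Ccnd3 had between 3214 and 3785. Cyclin D1 therefore made up between 77.3% and 80.0% of the summed FPKM of the 3 D-type cyclins, 79.0% ± 1.41 in intact and 78.6% ± 0.440 in crushed nerves (SD, n = 3 nerves each, exact permutation test, two-sided, p = 0.7). With groups of 3, a permutation p cannot go below 0.1 and no such test here could pass 0.05.

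The CIP/KIP inhibitors were read at high levels in the same libraries. Cdkn1a, which encodes p21, lies on chromosome 20 from 6351458 to 6358864 and reached 5886, 5925 and 5516 counts across the intact replicates against 6240, 5957 and 5503 across the crushed ones. In raw counts crushed nerve 1 was the highest and crushed nerve 3 the lowest, so that the intact range lay inside the crushed one. After normalization intact nerve 1 was the highest, at 232.6 CPM, and crushed nerve 2 the lowest, at 219.4 CPM, and the groups overlapped. The normalized CPM of Cdkn1a was 226.6 ± 5.29 in intact and 222.5 ± 5.18 in crushed nerves (SD, n = 3 nerves each). This gave a log2 fold change of -0.03 (95% interval -0.11 to 0.06, edgeR quasi-likelihood test, adjusted p = 0.791), which spans changes of level from -7.55% to 4.28%.

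Cdkn1b, which encodes p27, lies on chromosome 4 from 168689163 to 168693964 and reached 2394, 2348 and 2023 counts across the intact replicates against 2247, 2057 and 2137 across the crushed ones. Of the 9 genes it had the smallest p, with intact nerve 1 the highest, yet intact nerve 3 lay within the crushed range after normalization. It was at 88.4 ± 6.495 normalized CPM in intact and 81.1 ± 4.87 in crushed nerves (SD, n = 3 nerves each), with a log2 fold change of -0.12 (95% interval -0.27 to 0.02, adjusted p = 0.371). As a change of level the interval reaches from -16.8% to 1.09%. The third gene of the family, Cdkn1c, which encodes p57, was low with between 61 and 85 counts and a log2 fold change of -0.17 (adjusted p = 0.642).

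p21 transcripts made up 62.2% ± 1.17 of the summed FPKM of Cdkn1a, Cdkn1b and Cdkn1c in intact and 63.8% ± 1.34 in crushed nerves (SD, n = 3 nerves each, exact permutation test, two-sided, p = 0.2). The summed FPKM of Cdkn1a and Cdkn1b was 0.505 ± 0.0412 times that of Ccnd1 in intact and 0.496 ± 0.0232 times in crushed nerves (p = 0.9 by the same exact test). Intact nerve 1 had the highest of these ratios, 0.552. These ratios are of RNA levels and not of protein.

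The INK4 locus gave no counts. Cdkn2a, on chromosome 5 from 107823330 to 107841175, and Cdkn2b, on the same chromosome from 107845951 to 107858104, each had 0 counts in all 3 intact and all 3 crushed nerves, which allows a level of up to between 0.11 and 0.121 normalized CPM per nerve, for counting error only. A row at 0 in all 6 nerves is common in this table, at 43.7% of all rows, and it was found for none of the 33 other G1/S genes in the table and none of the 27 proliferation genes, and for 2 of the 28 p53 genes, Perp and Tnfrsf10b. The Cdkn2a row does not separate the INK4a and ARF transcripts of the gene, so neither was read. No fold change can be given for either gene, and any difference between groups was not detectable at this depth. Cdkn2c, the INK4 gene that encodes p18, was detected, with 499, 723 and 580 counts across the intact replicates against 613, 630 and 691 across the crushed ones, a log2 fold change of 0.05 (edgeR quasi-likelihood test, adjusted p = 0.873).

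The genes next to the silent pair were read after its counts had been seen. Within 600 kb on each side, the table has 18 other rows, of which 10 were also at 0 in all nerves, and these are interferon genes, small RNAs and rows without a gene name. Mtap, which encodes an enzyme of methionine salvage and lies 45.8 kb from Cdkn2a, had between 1820 and 1957 counts per nerve, a log2 fold change of -0.03 (adjusted p = 0.796). Klhl9, an adaptor of a ubiquitin ligase 495.9 kb away on the same side, had between 4026 and 4722 counts. On the far side of Cdkn2b, the row AABR07049156.1 was at 0 and Dmrta1 had between 0 and 3 counts. Counts on expressed genes thus stood on the Mtap side of the pair, and the nearest rows on the other side were at or under the floor. Why the pair was at 0 was not tested.

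**Figure D3:**
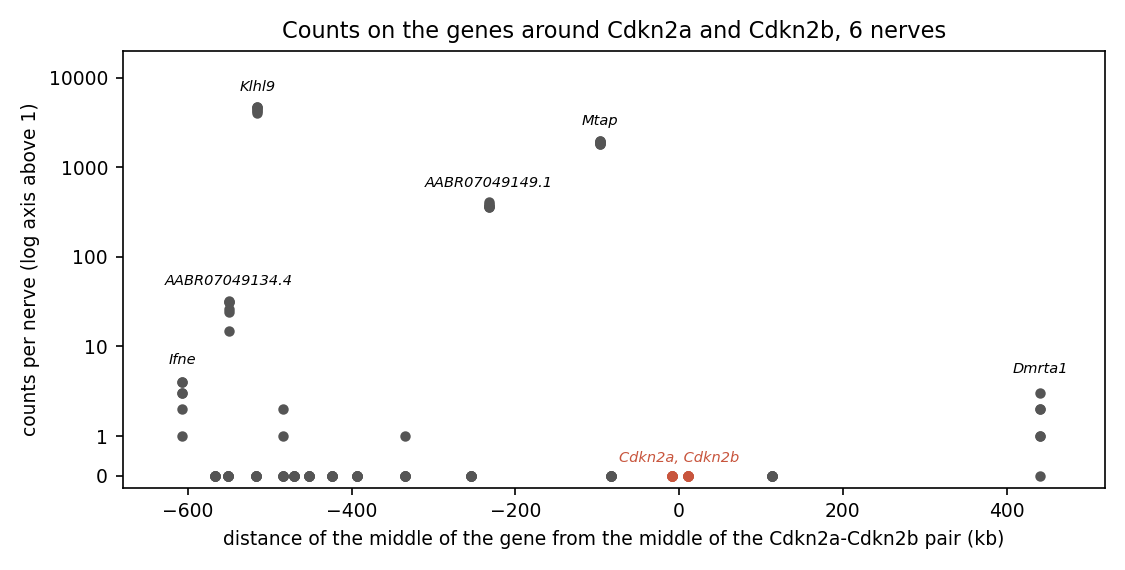
Counts per nerve (vertical axis, logarithmic above 1) of the 20 rows around Cdkn2a and Cdkn2b against the distance of the middle of each gene from the middle of the pair in kb, with 6 points per row. Cdkn2a and Cdkn2b (red) are at 0 in all nerves, while Mtap on the left has between 1820 and 1957 counts.

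Start-site sequences were compared between silent and expressed members, since the levels ran from 0 to the top of the table. RefSeq windows (GRCr8 assembly) were found for 7 of the 9 genes, all but Ccnd1 and Cdk6, and the 250 bases before the start are given for the silent pair and for 2 expressed genes. Capitals mark the GC box (GGGCGG), the E-box (CACGTG) and the p53 motif, searched on both strands. The p53 motif searched is a single copy of the 10-base unit that a full p53 site repeats.

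Cdkn2a, chr5:109107957-109108206, minus strand: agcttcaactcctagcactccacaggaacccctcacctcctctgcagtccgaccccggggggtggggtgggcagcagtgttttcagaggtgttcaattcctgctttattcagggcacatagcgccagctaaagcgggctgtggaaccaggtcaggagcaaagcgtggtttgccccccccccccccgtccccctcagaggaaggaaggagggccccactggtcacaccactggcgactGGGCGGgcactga
Cdkn2b, chr5:109134856-109135105, minus strand: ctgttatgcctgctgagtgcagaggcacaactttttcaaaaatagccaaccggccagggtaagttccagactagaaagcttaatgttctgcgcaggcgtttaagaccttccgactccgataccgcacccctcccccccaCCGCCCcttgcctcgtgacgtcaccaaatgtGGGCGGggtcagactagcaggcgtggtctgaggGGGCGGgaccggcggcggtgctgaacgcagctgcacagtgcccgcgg
Cdkn1a, chr20:7150682-7150931, plus strand: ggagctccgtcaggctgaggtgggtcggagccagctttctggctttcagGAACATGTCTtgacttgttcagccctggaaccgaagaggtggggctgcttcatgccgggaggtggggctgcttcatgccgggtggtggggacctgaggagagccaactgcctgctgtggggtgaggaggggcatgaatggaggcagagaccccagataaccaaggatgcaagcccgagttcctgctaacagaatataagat
Cdk4, chr7:64771203-64771452, plus strand: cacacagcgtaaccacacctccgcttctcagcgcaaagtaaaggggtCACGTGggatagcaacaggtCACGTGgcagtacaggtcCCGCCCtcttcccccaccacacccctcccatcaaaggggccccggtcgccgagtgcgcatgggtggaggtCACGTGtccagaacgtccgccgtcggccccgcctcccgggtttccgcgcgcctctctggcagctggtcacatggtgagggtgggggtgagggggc

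The silent Cdkn2b window held 18 CpG dinucleotides and 3 GC boxes, and that of Cdkn2a held 8 CpG and 1 GC box, against a median of 5 CpG over 33469 RefSeq windows, 30.5% of which hold a GC box. The Cdk4 window held 20 CpG with 1 GC box and 3 E-boxes, a motif found in 5.59% of windows. The Cdkn1a window held 6 CpG and 1 p53 motif beginning 201 bases before the start, a motif found in 6.64% of windows. Among the members not printed, the Rb1 window had the most CpG of the 7, 45, with 6 GC boxes and 1 p53 motif, while that of Mdm2 had 25 CpG and that of Cdkn1b 23 with no p53 motif in either. Each window covers only the 250 bases before 1 RefSeq start, and Cdkn2a has more than 1 start site. A motif missing from a window, as the p53 motif from that of Mdm2, may lie elsewhere in the gene. These matches describe letters in a window and not binding, and the silent and the expressed windows were not separated by GC boxes.

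The p53 arm was represented by Mdm2 and by a list of 30 genes known as p53 targets or regulators. Mdm2, on chromosome 7 from 60719066 to 60743328, reached 11893, 12846 and 11619 counts across the intact replicates against 13285, 13006 and 12089 across the crushed ones. Its normalized CPM, 475.3 ± 10.01 in intact and 482.7 ± 3.71 in crushed nerves (SD, n = 3 nerves each), overlapped between groups. The log2 fold change of 0.02 had the narrowest 95% interval of the 7 genes, -0.06 to 0.10 (SE 0.0359, edgeR quasi-likelihood test, adjusted p = 0.809). Mdm2 was read at 1.33 ± 0.0470 times the FPKM of Cdkn1a in intact and 1.38 ± 0.0227 times in crushed nerves (exact permutation test, two-sided, p = 0.2).

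Of the 30 listed p53 genes, 28 are in the table and 26 passed the expression filter. None rose or fell at an adjusted p under 0.05 in edgeR's test, against 1.47% higher and 1.65% lower of all genes. An unadjusted p under 0.05 was reached by 5, or 19.2% against 16.2% of all genes. DESeq2 called 1 higher, Fas, against 219 of all 12393 genes. Nothing is read from these counts about the list as a group. The median log2 fold change was -0.0032, with 11 genes above and 15 below 0, Ccng1 counted among the latter at a value that rounds to 0. The most abundant was Ccng1, which encodes cyclin G1, with between 17560 and 20160 counts and a mean of 179.0 FPKM, at a log2 fold change of 0.00 (standard error 0.0418). The death receptor gene Fas, singled out after its value was seen, reached 379, 345 and 378 counts across the intact replicates against 497, 514 and 430 across the crushed ones, a log2 fold change of 0.33 (edgeR quasi-likelihood test, adjusted p = 0.0744, and adjusted p = 0.0450 with DESeq2). For Polk, which encodes a translesion DNA polymerase, the log2 fold change was -0.27 (adjusted p = 0.0627), and for Gadd45a, a DNA damage response gene, it was -0.18 (adjusted p = 0.159). The apoptosis gene Bax stood at a log2 fold change of -0.02 (adjusted p = 0.942), and the p53 inhibitor gene Mdm4 at 0.01 (adjusted p = 0.981). Perp, a desmosomal p53 target, and the death receptor gene Tnfrsf10b had 0 counts in all nerves.

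Rb1, on chromosome 15 from 55083140 to 55209342, was the lowest of the detected members. It reached 1254, 1456 and 1337 counts across the intact replicates against 1518, 1495 and 1462 across the crushed ones. Its raw counts in crushed nerves were all above those in intact nerves, whereas after normalization, at 52.9 ± 2.96 CPM in intact and 56.3 ± 1.76 CPM in crushed nerves (SD, n = 3 nerves each), intact nerve 2 lay within the crushed range. The log2 fold change was 0.09 (95% interval -0.035 to 0.22, edgeR quasi-likelihood test, adjusted p = 0.476), the largest positive value of the 7. Rb1 overlaps Lpar6, which had at most 316 counts. The FPKM of Ccnd1 was 15.8 ± 0.426 times that of Rb1 in intact and 14.5 ± 0.951 times in crushed nerves (SD, n = 3 nerves each), without overlap between groups (two-sided exact permutation p = 0.1, which is the smallest possible). This was 1 of 8 sums, shares and ratios compared in this way, and after Benjamini-Hochberg adjustment over the 8 its p was 0.533, and none of the 8 was lower.

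The other G1/S genes act around Rb1, as cyclins, kinases, pocket proteins and E2F factors. Of 34 listed genes, 33 are in the table and 32 passed the filter, of which 0 were higher, against 1.47% of all genes, and 1, E2f5, was lower in crushed nerves at an adjusted p under 0.05. That is 3.12% of the list against 1.65% of all genes, and nothing is read from a share that rests on 1 gene. The median log2 fold change was -0.0088, with 12 genes above and 20 below 0. E2f5, which encodes an E2F factor that acts with pocket proteins in repression, reached 1667, 1645 and 1524 counts across the intact replicates against 1232, 1445 and 1374 across the crushed ones. It fell by 0.31 on the log2 scale (SE 0.0722, edgeR quasi-likelihood test, adjusted p = 0.0463), without overlap between groups. The call was kept with upper-quartile factors (adjusted p = 0.0466), with DESeq2 (adjusted p = 0.00425) and without the filter (adjusted p = 0.0469). It was lost with library size as the only scaling (adjusted p = 0.0578) and with limma (adjusted p of 0.0985 and 0.1). It was also lost with the replicate block (adjusted p = 0.0838) and without any 1 of the 6 nerves (adjusted p between 0.0527 and 0.140). The log2 fold change stayed below 0 in these fits, at -0.3129 with the block and between -0.3632 and -0.2273 without 1 nerve. The summed fibroblast and Schwann cell markers, given above, were also lower in all crushed than in all intact nerves, as were the counts of Col1a1 (between 293 and 363 against between 494 and 537), Pdgfrb (between 176 and 205 against between 290 and 330) and Erbb3 (between 89 and 94 against between 130 and 135), and their part in the E2f5 result was not tested. The most abundant of this list was Ccna2, which encodes cyclin A2, with a mean of 116.4 FPKM and a log2 fold change of -0.05 (adjusted p = 0.565). The other pocket protein genes, Rbl1 and Rbl2, had log2 fold changes of -0.01 (adjusted p = 0.911) and 0.09 (adjusted p = 0.648). E2f1, the activator released by Rb1, had between 2502 and 2858 counts and a log2 fold change of 0.01 (adjusted p = 0.911).

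**Figure D4:**
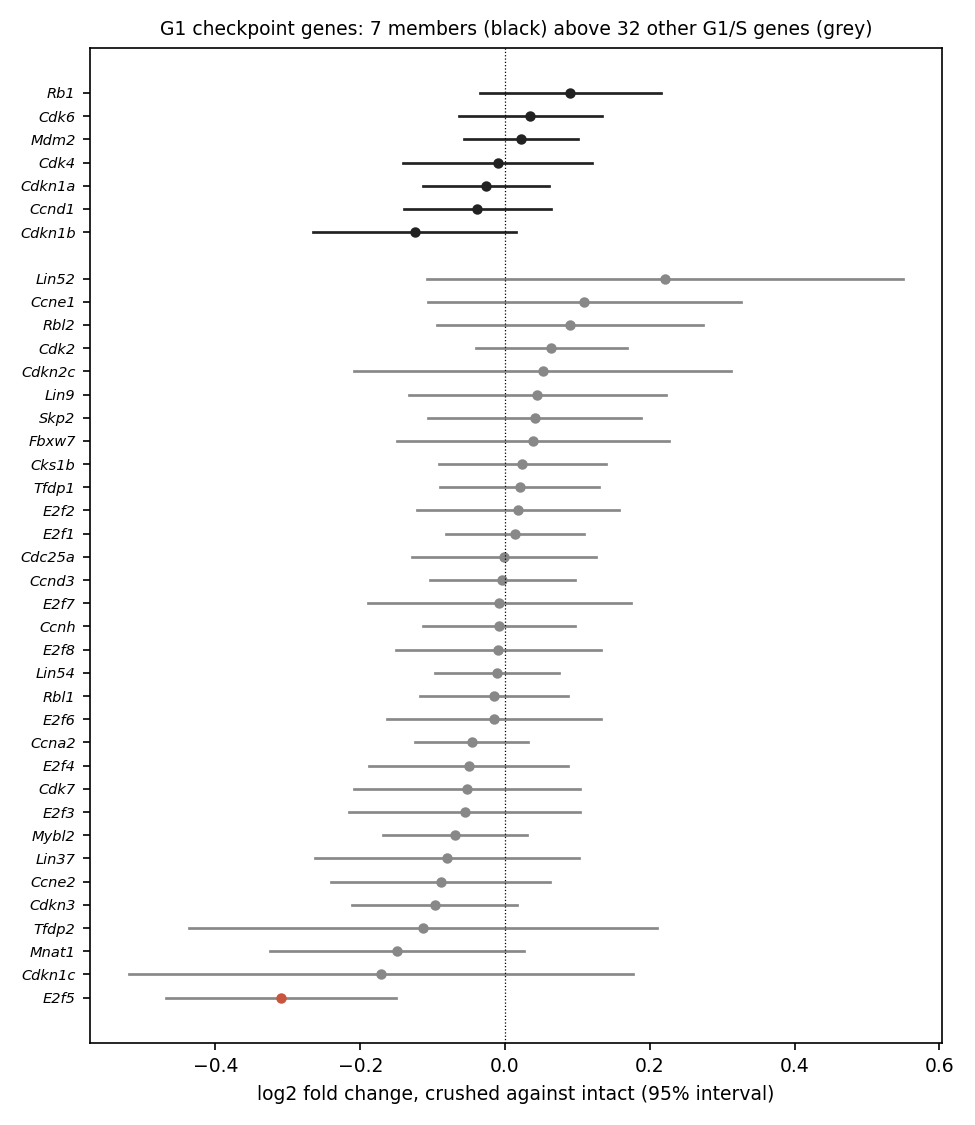
Log2 fold change of crushed against intact nerves (horizontal axis) with its 95% interval for the 7 tested members (black, upper block) and 32 other G1/S genes (grey, lower block). All member intervals include 0, and E2f5 (red) is the only gene of the plot at an adjusted p under 0.05.

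Proliferation genes were abundant in both groups, with a median of 85.6 FPKM. All 27 listed genes in the table passed the filter, and 20 of them were within the highest 10% of tested genes by FPKM. Top2a, which encodes the topoisomerase of dividing cells, was the highest at 162.2 FPKM, and Mki67, which encodes the Ki-67 antigen, had between 37037 and 43837 counts and 152.9 FPKM. None of the 27 was called higher and none lower by edgeR, against 1.47% and 1.65% of all genes, 3 had an unadjusted p under 0.05, or 11.1% against 16.2% of all genes, and DESeq2 and limma called 0. Their summed FPKM was 2464 ± 13.9 in intact and 2481 ± 11.9 in crushed nerves (SD, n = 3 nerves each, exact permutation test, two-sided, p = 0.3). In every library the CDK inhibitor genes thus divided into Cdkn1a, Cdkn1b and Cdkn2c, with means of 83.6, 48.3 and 16.7 FPKM, Cdkn1c with 0.905 FPKM, and Cdkn2a and Cdkn2b, listed at 0, beside proliferation genes between 19.4 and 162.2 FPKM. Cdkn3, which carries the inhibitor name but encodes a phosphatase that acts on cyclin-dependent kinases, was at 95.6 FPKM. Cells in and out of the cycle are mixed in bulk RNA, so it was not tested whether the same cells express the inhibitors and the proliferation genes.

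**Figure D5:**
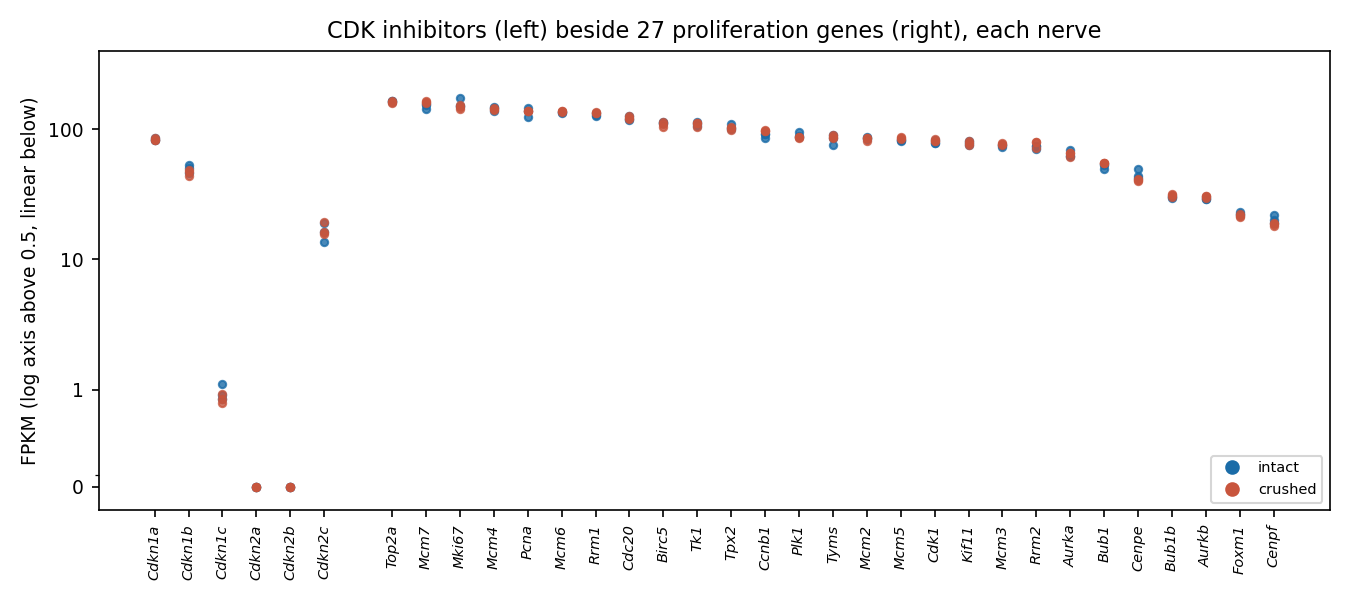
FPKM (vertical axis, logarithmic above 0.5 and linear below) of 6 CDK inhibitor genes (left) and 27 proliferation genes (right) in each intact (blue) and crushed (red) nerve. Cdkn1a and Cdkn1b lie among the proliferation genes, Cdkn2c just below them, Cdkn1c near 1, and Cdkn2a and Cdkn2b at 0 in all nerves.

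The genes whose log2(normalized CPM + 0.1) most resembled that of Cdkn1b, the member with the smallest p, were Blvra, Wfs1 and Tmem131. Their Pearson correlations with Cdkn1b over the 6 nerves were 0.996, 0.991 and 0.989. These are the highest of 12392 correlations over only 6 libraries that share depth and handling, and are given as a description.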

How the data were processed

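RNA-seq of 3 intact and 3 crushed nerves was used. The authors deposited 1 table with unnormalized counts of reads per Ensembl gene, and FPKM values that the authors computed from those counts with a fixed length per gene. The submitters' processing notes list HISAT2, StringTie 1.3.0 and Rnor_6.0. The counting program, annotation and strandedness are not given in the sources used here. The methods describe TRIzol extraction, rRNA removal and RNase R, which degrades linear RNA and could change levels, whereas the labels name a column kit and no RNase R. Each of the 12 value columns matched the title of 1 nerve.

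Counts were filtered with filterByExpr, scaled with TMM and tested with edgeR's quasi-likelihood test without a block (edgeR 4.0.16, limma 3.58.1, DESeq2 1.42.0, R 4.3.3). Calls were made at an adjusted p under 0.05 over 12393 genes. The alternatives were upper-quartile factors, library size only, DESeq2, no filter, limma on log2(FPKM + 0.1) and log2(FPKM + 1), the replicate block and leaving out each nerve. Scripts were tested on simulated data. Total counts lay between 24844371 and 27139360, and floors reflect counting error alone because no molecular identifiers are named in the sources used here.

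The members were picked by function and by no threshold on a value, but both the members and the lists were chosen with earlier results of these data known. Named were all 9 members and, of each list, up to 4 genes with the smallest p among those at an adjusted p under 0.05, the gene with the highest FPKM, and 3 genes resembling the member with the smallest p. Other genes were named after their values were seen, for their family or their p. Of the lists, Cdkn2d, Bbc3, Tigar and Ccnb2 match no symbol of the table and were not analysed here. The series' design text calls the 3 nerves of a group biological replicates and the controls contralateral. No source used here ties a nerve to a rat, and p-values measure the spread between these nerves.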

Additional observations from a re-analysis of the deposited data

How the results depend on the processing

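None of the 7 tested members passed an adjusted p of 0.05 under any of 13 alternatives, and none met the limits of the methods. Over these 91 values the log2 fold changes lay between -0.1766 and 0.1249 and the smallest adjusted p was 0.193. Small values changed sign in 7 of the 91, 5 of them of Cdk4, which became 0.0069 with library size only, 0.0100 with limma at either pseudocount, and ranged from -0.0646 to 0.0655 without 1 nerve (0.0655 without intact nerve 1 and 0.0047 without crushed nerve 1). Ccnd1 ranged from -0.0672 to 0.0080 (0.0080 without intact nerve 2) and Cdk6 from -0.0015 to 0.0534 (-0.0015 without crushed nerve 3). Mdm2, Rb1, Cdkn1a and Cdkn1b kept their sign in all 13, but their size depended on single nerves. Without intact nerve 1, Cdkn1b went from -0.1249 to -0.0686, Rb1 from 0.0902 to 0.0505 and Cdkn1a from -0.0264 to -0.0018, and over the fits without 1 nerve Mdm2 ranged from 0.0149 to 0.0427. The value of Ccng1, almost 0, was 0.0025 with upper-quartile factors and with DESeq2, 0.0169 with library size only, 0.0024 without the filter, 0.0180 and 0.0179 with limma, 0.0010 with the replicate block, and from -0.0279 to 0.0393 without 1 nerve.

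E2f5, the only other G1/S gene called, was also called with upper-quartile factors, with DESeq2 and without the filter. It was not called with library size only, with limma at either pseudocount, with the replicate block or without any 1 nerve. The number of other G1/S genes lower was therefore 0 in those fits. Among the p53 genes DESeq2 called 1 higher, Fas, against 219 of all 12393 genes. The cause was not tested. Over all genes 387 were called, 242 with limma on log2(FPKM + 0.1), 256 on log2(FPKM + 1), 511 with DESeq2, and from 179 (without crushed nerve 1) to 392 without 1 nerve.

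With the replicate block (pairing by the numbers of the titles) the member values ranged from -0.1243 (Cdkn1b) to 0.0913 (Rb1), 300 genes were called over the table, and no member call changed. Same-numbered nerves had correlations of their deviations between -0.0106 and 0.072, which neither shows nor denies that they came from the same rat, and the numbers were not used as pairs. Values for Cdkn2a and Cdkn2b could not be had under any alternative, since all their counts are 0.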
